A study of Mus musculus with 8 samples.

Results

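The antioxidant response genes under the transcription factor NRF2 were followed in cultured mouse hepatoblasts and their progeny through 10 members, taken by name from the table: *Slc7a11*, *Gclc*, *Gclm*, *Gsr*, *Txnrd1*, *Srxn1*, *G6pdx*, *Nqo1*, *Hmox1* and *Osgin1*. They are 10 of the 23467 genes measured, and all 10 passed the filter on low values that left 13421 genes to be tested. None of the 10 changed with genotype or stage at the threshold of the test. *Gclc* and *Txnrd1* were higher than the control of their stage in 5 of 5 libraries labelled as *Lats1/2*-deficient, and *Hmox1* in 4 of 5. The exception for *Hmox1* lay in 1 of a pair of libraries that differed widely from each other. With other scalings of the libraries, given below, *Txnrd1* was no longer higher in all 5. Of all genes tested, 42.9% to 76.3% were higher in a given library of the 5, and the share higher in all 5 was not counted.

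NRF2, encoded by *Nfe2l2*, is held at a low level by KEAP1, which passes it to an ubiquitin ligase for degradation. When electrophiles or oxidants modify KEAP1, NRF2 escapes, pairs with a small MAF protein and binds the antioxidant response element of its target genes, whereas BACH1 occupies many of the same elements as a repressor. In liver these targets make glutathione, regenerate thioredoxin, supply NADPH and break down heme and quinones.

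Hepatoblasts were isolated from livers at E14.5 of mice of a mixed B6;129 strain. Control cells were labelled wild type, and the mutant cells *Lats1*-/-; *Lats2* f/fl; *Alb-cre*, here called L1L2_Alb as in the study, in which *Lats1* is absent from every cell and *Lats2* is deleted where the albumin promoter drives Cre. RNA was sequenced from undifferentiated hepatoblasts (iHBs, on collagen), from cells taken to hepatocytes (iHPs, 5 days with 12.5 ng/ml Oncostatin M by the labels, a little longer by the study's methods) and from cells taken to biliary epithelial cells (iBECs, 14 days on Matrigel). The 8 libraries were 1 control and 1 L1L2_Alb of iHB, 1 control and 2 L1L2_Alb of iHP, and 1 control and 2 L1L2_Alb of iBEC. The labels do not say whether the libraries came from different embryos or cultures, so every p measures the spread between these libraries, which may be technical. In the genotype and stage tests that spread also takes in any change of the genotype difference between stages. Their fit has 4 residual degrees of freedom, against 2 when all 6 conditions are fitted. With 1 control library a stage, the controls add no replicate spread.

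Values were RPKM, reads scaled by gene length and by library size. The depth recovered from them was 18436865 to 33229075 reads. RNA of the targeted genes was not lower with the mutant label in the fit. The fitted log2 fold change of *Lats1* was 0.44 (adjusted p = 0.460, limma) and that of *Lats2* 0.90 (adjusted p = 0.0312). Both were toward higher RNA in the libraries labelled L1L2_Alb. A value for a whole gene does not show which exons were read, so these values cannot decide whether the deletion took place. The study reports reduced expression of the targeted kinases in its mutant cells. The libraries are therefore named by their label, and each direction below rests on it. The YAP target genes *Ctgf* and *Cyr61* rose by 1.73 (adjusted p = 0.00796) and 1.93 (adjusted p = 0.00222), each in 5 of 5 libraries. Hepatocyte markers were present and were called lower for 5 of 8 genes in the libraries labelled L1L2_Alb, whereas the 6 biliary markers did not follow the stage as a list. *Spp1* was highest in control iBEC (23271 RPKM). *Sox9* rose over the controls, from 5.53 RPKM in iHB to 8.87 RPKM in iHP and 13.3 RPKM in iBEC. In contrast, *Krt7* (62.3 RPKM), *Krt19* (83.7 RPKM), *Epcam* (2.96 RPKM) and *Cldn4* (41.5 RPKM) were at their lowest of the 8 libraries in control iBEC. These genes were thus divided, and the biliary name of control iBEC rests on the study's label. The hepatocyte markers summed to 10468, 23498 and 31660 RPKM in the iHB, iHP and iBEC controls, with the highest sum in control iBEC. Of that list only *Cps1* was lower in control iBEC (123 RPKM) than in control iHP (340 RPKM). The part of this in the stage comparisons below was not tested. Macrophage markers were also present, with a sum over 6 genes of 1331 to 2150 RPKM in controls and 676 to 3099 RPKM in the libraries labelled L1L2_Alb.

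Markers of other cell types also differed with the genotype label, and their part in the results below was not tested. Of the 6 biliary markers *Krt7* (log2 fold change 2.17, adjusted p = 0.00422, limma) and *Krt19* (1.31, adjusted p = 0.0205) were called higher. *Spp1* was called lower (-1.50, adjusted p = 0.0306), as was *H19* (-2.07, adjusted p = 0.0459) of the 4 hepatoblast markers. The 6 mesenchymal markers had fitted estimates below 0 (median of -1.08, 0 called), with a sum of 3849, 2396 and 2432 RPKM in the iHB, iHP and iBEC controls. The libraries labelled L1L2_Alb had 1241 RPKM in iHB, 658 and 1032 RPKM in iHP and 3269 and 1527 RPKM in iBEC. The sum was thus lower than the control in iHB and iHP and on both sides of it in iBEC. Of 6 erythroid markers 2 passed the filter, and *Hbb-b1* fell by 2.09 on the log2 scale (adjusted p = 0.0335). The erythroid sum was 2.86 to 109 RPKM in controls and 1.79 to 22.3 RPKM in the libraries labelled L1L2_Alb.

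The core of the antioxidant response element, TGACNNNGC, was searched on both strands of the RefSeq promoter windows of the members, from 250 bases before to 50 bases after the transcription start. 7 of the 10 members had a window, 9 windows in all (build GRCm38.p6, which is not the build of the deposited values), and 4 of these held a match. Over all windows 12.4% held the motif, over all genes with a window 14.0%, and over the tested genes with a window 17.3%. The 4 matches are shown with their flanks to show which members hold the element core near their start, 5′ to 3′ along the strand of the gene, with the match in capitals as the reverse complement GCNNNGTCA.
*Txnrd1* (chr10:82859104-82859132, + strand, first base of the match 92 bases before the start): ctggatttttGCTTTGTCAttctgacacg
*Gclm* (chr3:122245413-122245441, + strand, 134 bases before the start): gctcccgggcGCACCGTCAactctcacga
*G6pdx* (chrX:74428919-74428947, - strand, 57 bases before the start): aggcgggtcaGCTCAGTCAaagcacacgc
*Srxn1* (chr2:152105542-152105570, + strand, 28 bases after the start): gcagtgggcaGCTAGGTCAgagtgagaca
The windows of *Nqo1*, *Slc7a11* and *Osgin1* held no such letters. A match is a description of sequence only, and binding was not measured.

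Levels per gene length spanned a wide range. *Hmox1*, which encodes the heme-degrading heme oxygenase, had the highest mean over the 8 libraries, 238 RPKM, followed by *Gclc* with 142 RPKM, although *Gclc* was above it in control iBEC and in iHP library 2 labelled L1L2_Alb. *Osgin1* (90.1 RPKM), *Txnrd1* (81.8 RPKM) and *Gsr* (80.5 RPKM) came next, and their ranges over libraries overlapped. *G6pdx* (46.5 RPKM), *Gclm* (28.0 RPKM) and *Srxn1* (14.99 RPKM) were lower. *Slc7a11* had 4.77 RPKM and *Nqo1*, the NADPH quinone oxidoreductase often used as an indicator of NRF2 activity, had 2.33 RPKM. Even so, *Nqo1* was read 47 to 183 times in a library, and the smallest count, 47 reads, has an exact 95% Poisson interval of 34.53 to 62.5 reads, which covers counting error only. The highest library stood over the lowest by 1.62-fold for *G6pdx* and by 5.44-fold for *Hmox1*.

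**Figure D1:**
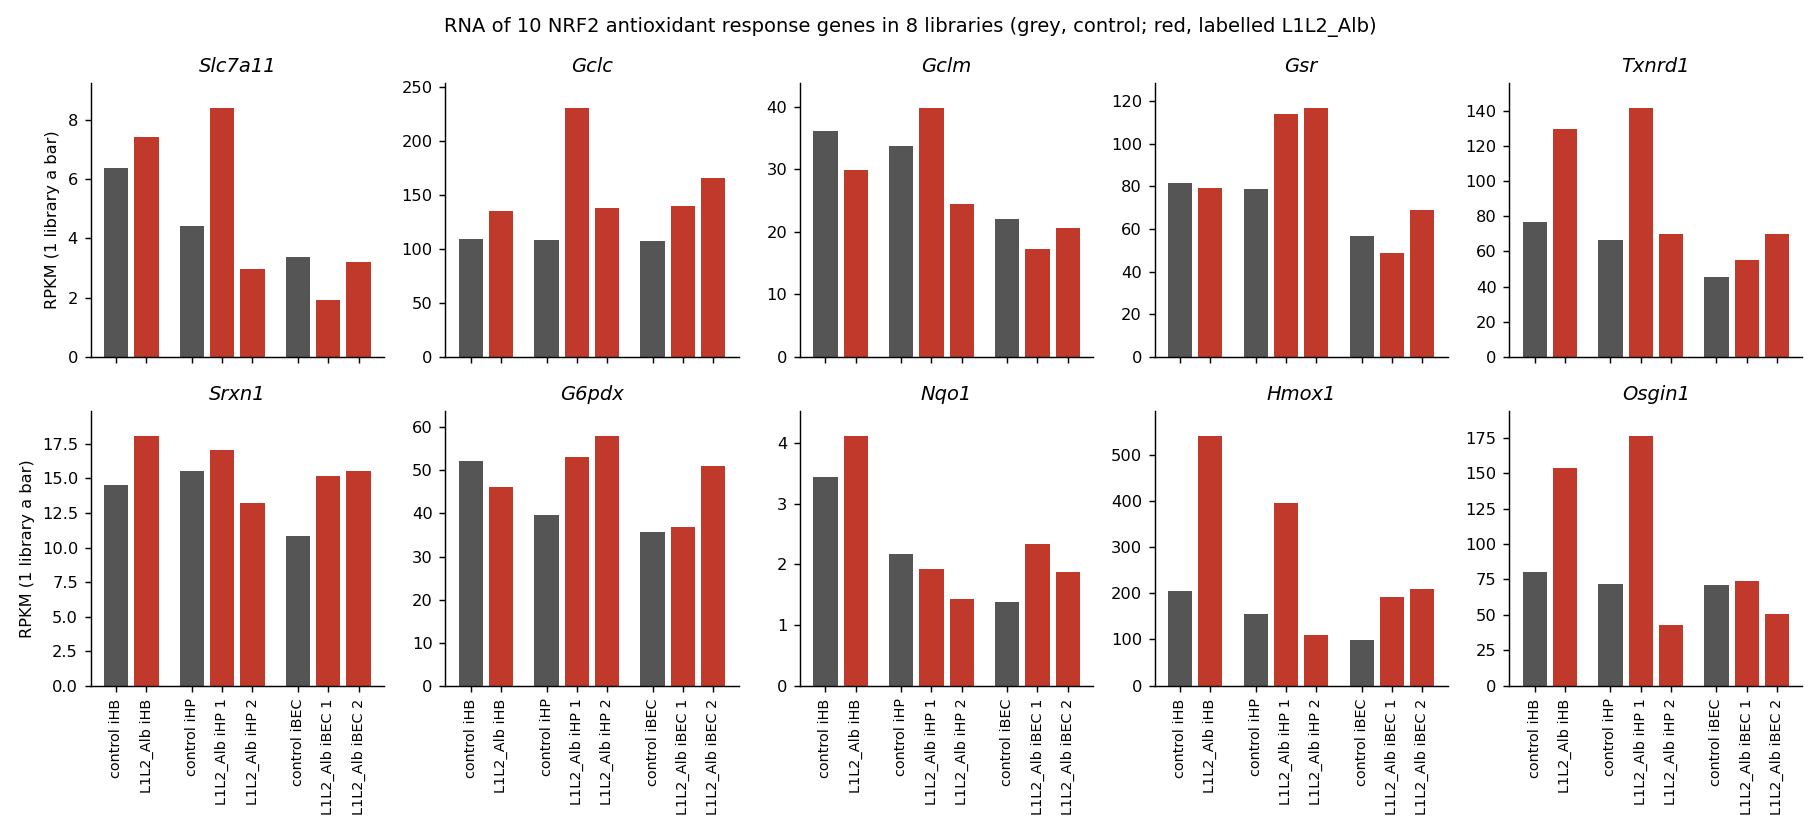
RPKM (vertical axis, from 0, with its own scale in each panel) of the 10 genes in the 8 libraries (horizontal axis); each bar is 1 library, grey for control and red for libraries labelled L1L2_Alb, with no error bars because each bar is 1 value. *Hmox1*, *Txnrd1* and *Osgin1* share high bars in iHB and iHP library 1 labelled L1L2_Alb and a low bar in iHP library 2.

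The first comparison asked whether the members differed between genotypes. Of the genes that supply and recycle glutathione, *Slc7a11*, the transport subunit that imports cystine, had 6.37 RPKM in the iHB control and 7.43 RPKM in iHB labelled L1L2_Alb. The iHP control had 4.44 RPKM, against 8.42 and 2.99 RPKM in libraries 1 and 2 of the pair, and the iBEC control had 3.38 RPKM, against 1.94 and 3.22 RPKM. The control lay inside the range of the iHP pair and above both iBEC libraries. *Gclc*, the catalytic subunit of the rate-limiting enzyme of glutathione synthesis, was at 109 and 135 RPKM in control and L1L2_Alb-labelled iHB, at 108 RPKM against 231 and 138 RPKM in iHP, and at 108 RPKM against 140 and 166 RPKM in iBEC. Its 3 controls differed by little over 1 RPKM, and the 5 libraries labelled L1L2_Alb were all above all controls. How many of all genes were so separated was not counted. *Gclm*, the modifier subunit of the same enzyme, did not move with it: it was at 36.2 and 29.9 RPKM in iHB, at 33.7 RPKM against 39.8 and 24.4 RPKM in iHP, and at 22.0 RPKM against 17.2 and 20.6 RPKM in iBEC. *Gsr*, which reduces oxidised glutathione, was at 81.5 and 79.0 RPKM in iHB, at 78.6 RPKM against 114 and 117 RPKM in iHP, and at 56.7 RPKM against 48.8 and 69.0 RPKM in iBEC. Only in iHPs did both libraries labelled L1L2_Alb lie above the control of *Gsr*, and there the pair was close.

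In the thioredoxin branch, *Txnrd1*, the cytosolic thioredoxin reductase, was at 76.9 and 130 RPKM in control and L1L2_Alb-labelled iHB. The iHP control had 66.2 RPKM, against 142 and 69.7 RPKM in libraries 1 and 2, and the iBEC control 45.5 RPKM, against 55.2 and 69.6 RPKM. All 5 libraries lay above the control of their stage, by a small margin in iHP library 2. *Srxn1*, sulfiredoxin, which repairs over-oxidised peroxiredoxins, was at 14.53 and 18.1 RPKM in iHB, at 15.5 RPKM against 17.1 and 13.2 RPKM in iHP, and at 10.8 RPKM against 15.2 and 15.6 RPKM in iBEC. *G6pdx*, which makes NADPH in the pentose phosphate pathway, was at 52.1 and 46.2 RPKM in iHB, at 39.6 RPKM against 53.0 and 57.9 RPKM in iHP, and at 35.7 RPKM against 36.7 and 51.0 RPKM in iBEC. Each of these genes was above the control in 4 of 5 libraries, with the exception in iHP library 2 for *Srxn1* and in iHB for *G6pdx*.

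*Nqo1* was at 3.44 and 4.11 RPKM in iHB, at 2.16 RPKM against 1.92 and 1.42 RPKM in iHP, and at 1.38 RPKM against 2.34 and 1.86 RPKM in iBEC, so both iHP libraries labelled L1L2_Alb were below the control and both iBEC libraries above it. *Hmox1* was at 206 and 540 RPKM in iHB, at 154 RPKM against 396 and 109 RPKM in iHP, and at 99.3 RPKM against 191 and 209 RPKM in iBEC. Libraries of iHB, iHP 1 and both iBEC labelled L1L2_Alb were well above their controls, and iHP library 2 was below. *Osgin1*, a growth inhibitor induced by oxidative stress, was at 80.1 and 154 RPKM in iHB, at 72.0 RPKM against 176 and 43.1 RPKM in iHP, and at 71.2 RPKM against 73.9 and 50.3 RPKM in iBEC. It was high in the same iHB and iHP libraries as *Hmox1* and showed no common direction in iBECs.

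Fitted with limma over the 3 stages on log2(RPKM + 1), a scale that understates changes of low genes, 0 of 10 members passed an adjusted p of 0.05, against 9.57% of all genes tested (1284 of 13421). An unadjusted p under 0.05 was found for 2 of 10 members and for 3524 of the 13421 genes. The log2 fold change was 0.53 for *Gclc* (standard error 0.21, adjusted p = 0.158) and 0.57 for *Txnrd1* (standard error 0.24, adjusted p = 0.182), both higher in 5 of 5 libraries. With upper-quartile scaling and quantile normalization *Gclc* stayed higher in all 5, although by only 0.02 in iHP library 2 after quantile normalization. In that library *Txnrd1* turned to -0.05 and -0.24 with these scalings. *Hmox1* had the largest estimate of the members, 0.90, with a standard error of 0.39 and an adjusted p of 0.193. The fold change of *Srxn1* was 0.23, that of *G6pdx* 0.22 and that of *Gsr* 0.20, with standard errors of 0.18, 0.19 and 0.19. *Osgin1* was at 0.28 with a standard error of 0.43, *Nqo1* at 0.10 with 0.22, *Gclm* at -0.19 with 0.20 and *Slc7a11* at 0.0015 with 0.31. The adjusted p of these 7 genes ran from 0.476 to 0.998. The median over the members was 0.23 with 9 of 10 above 0, beside a median of 0.06 and 55.8% above 0 over all genes tested, and with either scaling 8 of 10 were above 0. Without iHP library 2, *Hmox1* passed the test with a log2 fold change of 1.22 (adjusted p = 0.00987), a setting that called 1227 of all genes. Its adjusted p over all 14 alternatives ran from 0.00987 to 0.496 and no other member passed in any of them.

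**Figure D2:**
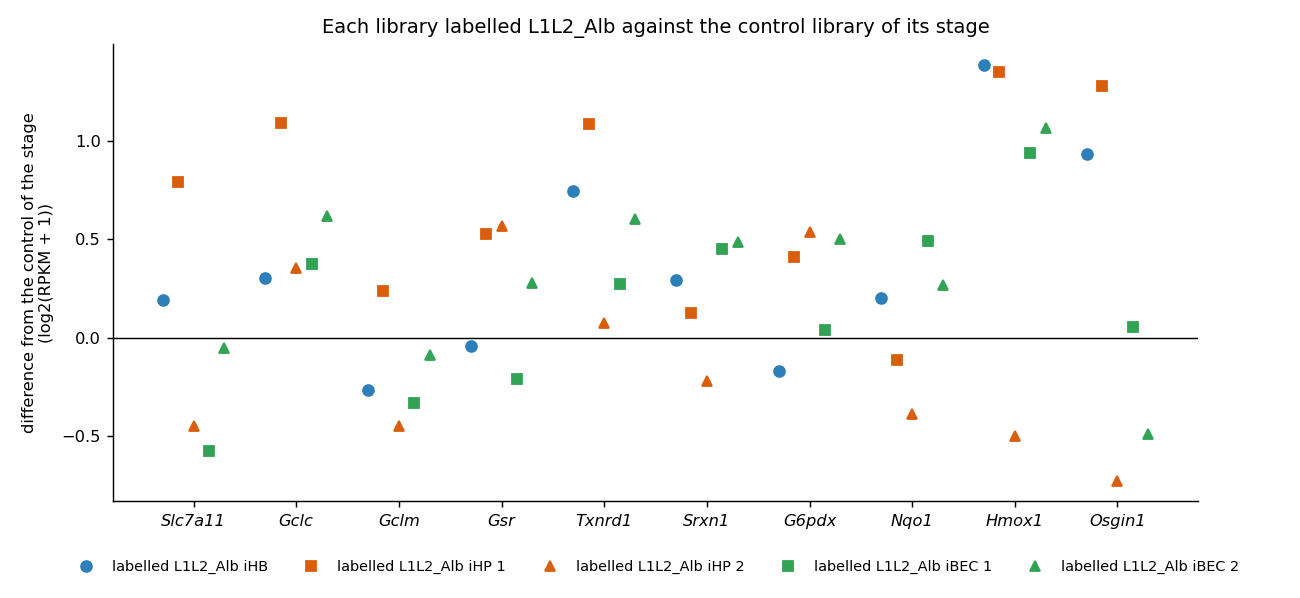
Difference of each library labelled L1L2_Alb from the control library of its stage, in log2(RPKM + 1) (vertical axis), for the 10 genes (horizontal axis); each point is 1 library, coloured by stage, and the line marks 0. *Gclc* and *Txnrd1* have all 5 points above 0, and *Hmox1* has 4 points between 0.94 and 1.39 and 1 at -0.50.

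Within a stage there was 1 control library, so the differences have no test and a gene is counted where it differed by at least 1 on the log2 scale in every library of the stage. In iHBs *Hmox1* was higher by 1.39 and was the 1 member counted, against 5.6% of genes. No member was counted as lower there, against 8.99%. In iHPs no member was counted in either direction, against 4.64% higher and 8.26% lower. In iBECs no member was counted either, against 4.19% higher and 1.62% lower, although *Hmox1* came near with 0.94 and 1.06. The median difference of the members was 0.25 in iHB against -0.09 over all genes, and 0.16 and 0.38 in the iBEC libraries against 0.22 and 0.26 over all genes. With upper-quartile scaling the iBEC medians of the members were 0.01 and 0.18, and those of all genes 0.09 and 0.05. A test of whether the genotype difference varied with stage (limma moderated F, 2 residual degrees of freedom) called 0 of 10 members, against 0% of all genes. No member had an unadjusted p under 0.05, where 733 of all genes did, and the p of the members ran from 0.507 to 0.965.

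The iHP libraries labelled L1L2_Alb differed widely from each other at these genes, a contrast chosen after their values were seen. Library 1 stood over the control by at least 1 on the log2 scale for 4 members, *Hmox1* (1.35), *Osgin1* (1.28), *Gclc* (1.09) and *Txnrd1* (1.09), against 6.73% of all genes. In library 2 the same genes differed from the control by -0.50, -0.73, 0.35 and 0.07. The median of the members was 0.66 in library 1 and -0.30 in library 2, beside 0.01 and -0.03 over all genes.

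Set directly against each other, library 2 was lower than library 1 by at least 1 for 4 of 10 members, where 12.1% of all genes differed by that size in either direction. The difference was -2.01 for *Osgin1*, -1.85 for *Hmox1*, -1.24 for *Slc7a11* and -1.01 for *Txnrd1*. *Gclc* and *Gclm* followed with -0.74 and -0.69, whereas *Gsr* (0.04) and *G6pdx* (0.13) were alike in the pair. Between the iBEC libraries 0 of 10 members differed by 1, against 4.98% of all genes, and the largest difference was -0.55, for *Osgin1*. Median size of the difference was 0.71 over the members and 0.43 over all genes in the iHP pair, and 0.29 and 0.25 in the iBEC pair.

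Gene length and macrophage markers also differed between the iHP libraries, and their part in the result was not tested. Genes under 1000 bases were higher in library 2 by a median of 0.32, and genes of 4000 bases or more were lower by a median of 0.18 (difference of -0.18). Among genes of like length the difference ran from -0.33 to 0.47 around *Hmox1* and from -0.37 to 0.44 around *Osgin1* (percentiles 25 to 75), so that both genes lay below the middle range for their length. For *Slc7a11*, a gene of 9227 bases, that range was -0.63 to 0.12. The macrophage markers summed to 676 RPKM in library 1 and 1377 RPKM in library 2, beside 1364 RPKM in control iHP, and *Hmox1* was highest in the iHP library where they were lowest. The opposition to the sum was also present in iHB and was absent in iBEC. In iBEC the sum was 1331 RPKM in control against 2826 and 3099 RPKM in the libraries labelled L1L2_Alb, where *Hmox1* was higher too. In iHB it was 2150 RPKM in control and 1898 RPKM in the library labelled L1L2_Alb, where *Hmox1* was higher. Of the 6 macrophage markers, 5 passed the filter, and *Clec4f* was at 0 to 2.24 RPKM. *Lyz2* made up most of the sum, with 448 and 989 RPKM in iHP libraries 1 and 2. *Cd68* (69.5 and 120 RPKM), *C1qa* (86.8 and 200 RPKM) and *Emr1* (13.2 and 16.1 RPKM) were also higher in library 2. *Csf1r* was lower there (58.7 and 52.4 RPKM). In iHB *Lyz2* and *Emr1* were lower in the library labelled L1L2_Alb, whereas *Cd68*, *Csf1r* and *C1qa* were higher. Fewer cells of a type and less RNA per cell cannot be told apart in these cultures.

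**Figure D3:**
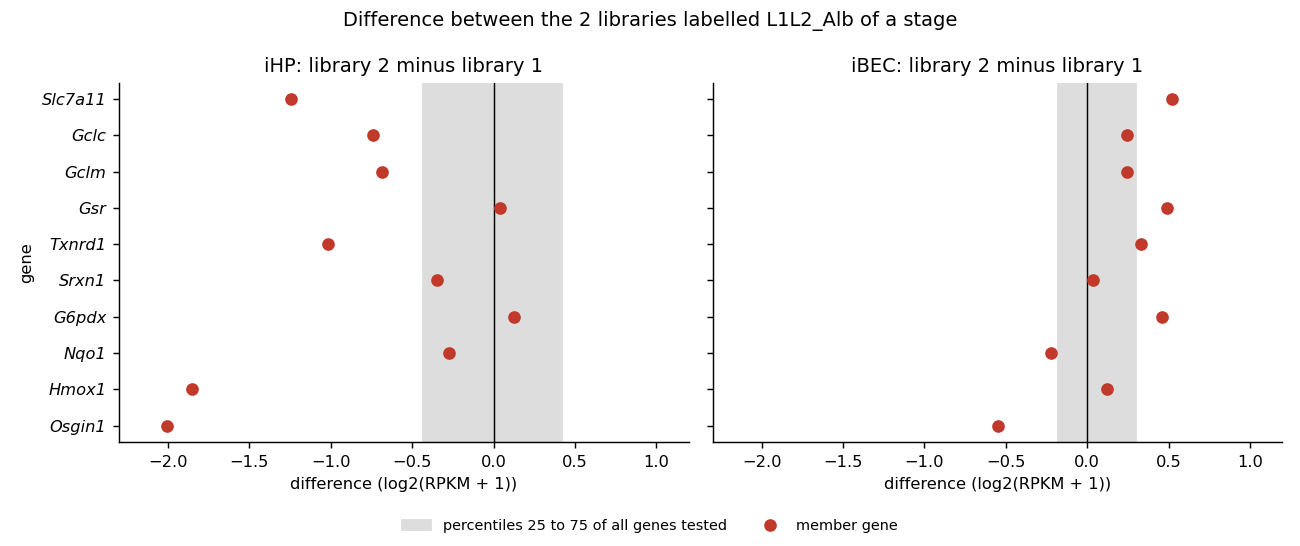
Difference in log2(RPKM + 1) between libraries 1 and 2 labelled L1L2_Alb of iHP (left) and iBEC (right) on the horizontal axis, for the 10 genes (vertical axis); points are genes and the grey band spans percentiles 25 to 75 of the 13421 genes tested. In iHP, 6 genes lie below the band, 4 of them under -1, and in iBEC all points lie between -0.55 and 0.52.

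The second comparison set the stages against each other. In the controls every member was lowest in iBEC, as were 67.5% of all genes tested. *Hmox1* fell the furthest, with a difference of -1.05 between control iBEC and control iHB, and was the 1 member lower by at least 1, against 14.9% of genes. *Nqo1* (-0.90), *Slc7a11* (-0.75), *Txnrd1* (-0.74) and *Gclm* (-0.69) came next. *Gclc* was level over the controls, with -0.02, and *Osgin1* nearly so, with -0.17. The median of the members was -0.61, beside -0.44 over all genes. After upper-quartile scaling the members' median was -0.22 and that of all genes -0.09, and 7 of 10 members and 48.9% of genes remained lowest in control iBEC. *Gclc* and *Osgin1* were then higher in control iBEC than in control iHB, by 0.39 and 0.23. Quantile normalization left 6 of 10 members lowest there, and 44.6% of genes.

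Between the control iHP and iHB libraries the members moved less. Their median difference was -0.18, equal to that of all genes, with 9 of 10 lower. *Nqo1* (-0.49) and *Slc7a11* (-0.44) were at one end and *Srxn1* (0.09) at the other. None was lower by at least 1, against 1.65% of genes. Between control iBEC and control iHP the median was -0.44, beside -0.25 over all genes, with *Hmox1* (-0.63), *Gclm* (-0.59) and *Txnrd1* (-0.53) the lowest. None was lower by at least 1 there, against 8.98% of genes. With upper-quartile scaling 5 of 10 members were higher in iHP than in iHB, and 3 of 10 higher in iBEC than in iHP. Each stage has 1 control library, so these differences carry no test.

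**Figure D4:**
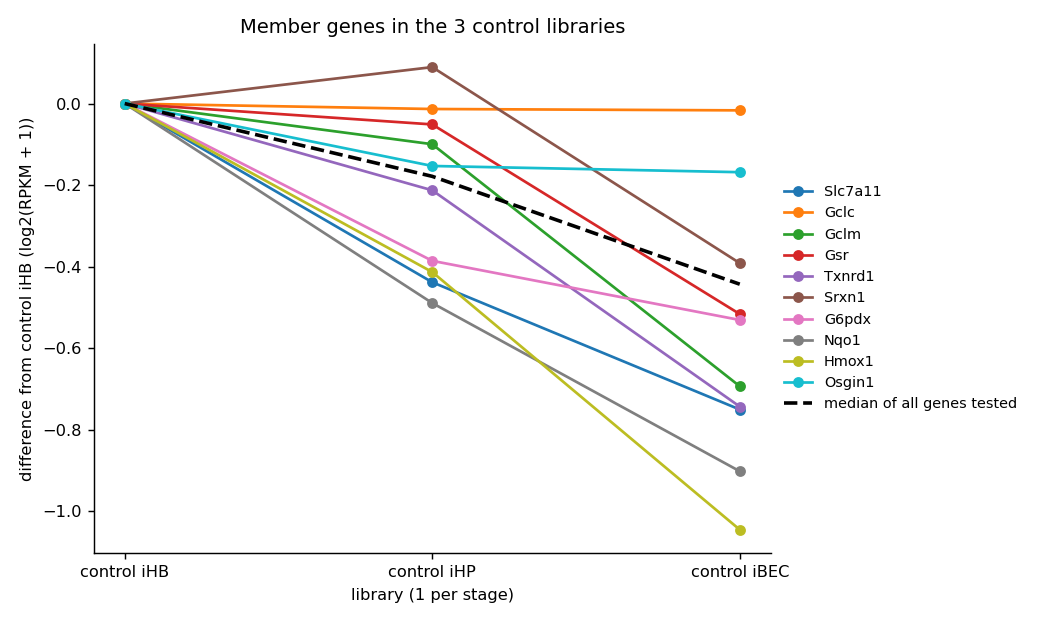
Difference from control iHB in log2(RPKM + 1) (vertical axis) of the 10 genes in the 3 control libraries (horizontal axis); each coloured line is a gene and the dashed line the median of the 13421 genes tested, with 1 library a point. The gene lines end between -1.05 and -0.02 in control iBEC as deposited, around the median of -0.44, and *Gclc* and *Osgin1* turn to higher after upper-quartile scaling.

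With both genotypes in the fit, no member passed the test between stages, and the 3 contrasts share libraries. Between iBEC and iHB 0 of 10 passed with limma, against 5.72% of all genes. An unadjusted p under 0.05 was found for 3357 of the 13421 genes and for 5 of 10 members. These were *Txnrd1* (-0.92 on the log2 scale, standard error 0.31, adjusted p = 0.123), *Nqo1* (-0.77, adjusted p = 0.140), *Slc7a11* (-1.06, adjusted p = 0.150), *Gclm* (-0.67, adjusted p = 0.152) and *Hmox1* (-1.22, adjusted p = 0.175). Between iBEC and iHP 0 of 10 passed with limma, against 4.12%. There 3 members and 2984 of all genes had an unadjusted p under 0.05, and *Gsr* came nearest with -0.81 (standard error 0.21, adjusted p = 0.0758). Between iHP and iHB 0 of 10 passed with limma, against 0% of all genes. There 1 member, *Nqo1* (-0.77, adjusted p = 0.485), and 1158 of all genes had an unadjusted p under 0.05. Without iHP library 2, *Txnrd1* and *Hmox1* passed between iBEC and iHB with an adjusted p of 0.0378 and 0.0120, and *Hmox1* between iBEC and iHP with 0.0467. Over all genes that setting called 1739 in place of 768 between iBEC and iHB, and 987 in place of 553 between iBEC and iHP.

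The regulators of the pathway were read next, from a fixed list of 12 genes, all tested. *Nfe2l2* itself was at 84.1 and 72.5 RPKM in control and L1L2_Alb-labelled iHB, at 54.8 RPKM against 64.9 and 61.4 RPKM in iHP, and at 40.1 RPKM against 49.95 and 52.1 RPKM in iBEC. It was above the control in 4 of 5 libraries by small amounts, and its log2 fold change was 0.14 (standard error 0.16, adjusted p = 0.651). *Keap1* was at 14.2 to 21.9 RPKM over all libraries, with a fold change of -0.02 (adjusted p = 0.966), and the repressor *Bach1* at 10.1 to 16.5 RPKM, with -0.16 (adjusted p = 0.652). Over stages *Nfe2l2* was lower in iBEC than in iHB by a log2 fold change of -0.74 without passing the test (adjusted p = 0.0783).

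Of these 12 genes 3 rose in the libraries labelled L1L2_Alb and 0 fell, beside the 9.57% of all genes called in either direction, and the median of the list was 0.23. *Mafk*, a small MAF protein that pairs with NRF2 and with BACH1, was at 18.8 and 96.2 RPKM in iHB, at 16.6 RPKM against 60.4 and 71.2 RPKM in iHP, and at 11.0 RPKM against 28.0 and 42.8 RPKM in iBEC. All 5 libraries labelled L1L2_Alb were above all 3 controls, and the log2 fold change was 1.90 (adjusted p = 0.00254). *Maff*, a further small MAF, was at 50.3 and 125 RPKM in iHB, at 43.5 RPKM against 69.4 and 73.9 RPKM in iHP, and at 27.6 RPKM against 66.0 and 97.4 RPKM in iBEC. These libraries again did not overlap the controls, and the fold change was 1.16 (adjusted p = 0.0159). How many of all genes had no overlap was not counted. *Nfe2l1*, the NRF2-related factor that regulates proteasome genes, was higher in 5 of 5 libraries by a fitted 0.73 (adjusted p = 0.0360), a call that ended in 8 of 14 alternatives, among them upper-quartile scaling (adjusted p = 0.0562), and the fits without iHP library 1 (0.0637) and without iBEC library 2 (0.0801). With 1 stage left out, the adjusted p of *Mafk* rose over the threshold without iHP (0.0502), and those of *Maff* without iHB (0.0944), iHP (0.0621) and iBEC (0.0577), while both passed in all other alternatives. *Nfe2l1* was then at 0.153, 0.219 and 0.0702 without iHB, iHP and iBEC. Unlike *Hmox1*, *Mafk* and *Maff* were at like levels in both iHP libraries labelled L1L2_Alb. The remaining small MAF, *Mafg*, had a fold change of -0.19 (adjusted p = 0.704), and *Sqstm1*, whose protein binds KEAP1, 0.73 (adjusted p = 0.0895), both named after their values were seen.

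**Figure D5:**
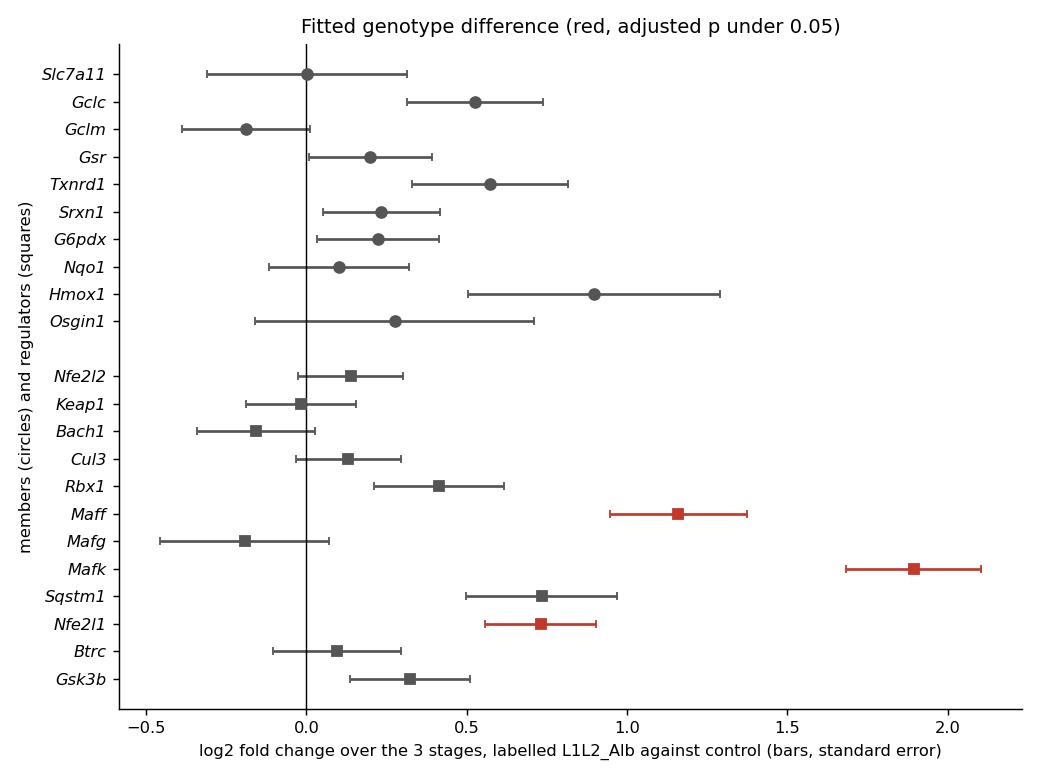
Fitted log2 fold change over the 3 stages (horizontal axis) of the 10 members (circles) and 12 regulators (squares), libraries labelled L1L2_Alb against control; bars are standard errors and red marks an adjusted p under 0.05 (limma). Only *Mafk*, *Maff* and *Nfe2l1* are red, at 1.90, 1.16 and 0.73.

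Further genes that NRF2 is known to induce, a list of 27 with all tested, held 1 gene that rose and 0 that fell, with 13 estimates above 0, 14 below and a median of -0.005, beside 9.57% called and 55.8% above 0 over all genes. The gene that rose was *Ugdh*, which makes UDP-glucuronate for conjugation, at 82.6 and 171 RPKM in iHB, 110 RPKM against 206 and 160 RPKM in iHP, and 69.8 RPKM against 95.2 and 105 RPKM in iBEC (log2 fold change of 0.73, adjusted p = 0.0392). This call was lost in 11 of 14 alternatives, with an adjusted p from 0.0318 to 0.198, which was 0.0704 without iHP library 1, 0.0532 and 0.0810 without iBEC libraries 1 and 2, and 0.198, 0.166 and 0.0854 without iHB, iHP and iBEC. A list of 17 antioxidant enzymes outside that core held 1 gene that rose and 0 that fell, with 9 estimates above 0 and a median of 0.01, beside the same shares over all genes. It was *Gpx3*, the secreted glutathione peroxidase, at 62.6 and 160 RPKM in iHB, 114 RPKM against 237 and 664 RPKM in iHP, and 116 RPKM against 487 and 235 RPKM in iBEC (log2 fold change of 1.58, adjusted p = 0.0349). Its call was lost in 6 of 14 alternatives, among them upper-quartile scaling (adjusted p = 0.0556), no filter on low values (0.0897) and the fit without iBEC library 1 (0.0514), and was at 0.122, 0.111 and 0.0712 without iHB, iHP and iBEC. Catalase, superoxide dismutases and peroxiredoxins of this list did not pass the test.

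The members did not all share a profile. As a description over the 8 libraries, which share depth and culture, Pearson's r with the members' mean profile, of which each is a part, was 0.99 for *Txnrd1*, 0.88 for *Slc7a11* and 0.87 for *Hmox1*, and lowest for *Nqo1* (0.55), *Gclc* (0.57) and *G6pdx* (0.58). Among pairs, *Slc7a11* and *Gclm* (0.90), *Txnrd1* and *Hmox1* (0.88) and *Srxn1* and *Hmox1* (0.88) were the most alike, *Gsr* and *G6pdx* reached 0.83, and *Gclc* and *Nqo1* were the least alike (-0.16). Outside the members, the profiles most like their mean were those of *Gpatch1* (r = 0.99), *Kif2a* (0.99), *Mapkapk5* (0.99), *Dyrk1a* (0.99) and *Ttc17* (0.98), over 8 libraries. *Gpatch1*, for instance, was at 11.3 and 12.2 RPKM in iHB and iHP library 1 labelled L1L2_Alb and at 7.12 RPKM in iHP library 2, so that it was high and low in the same libraries as *Txnrd1*.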

How the data were processed

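The authors deposited 1 table with 1 RPKM value per gene and library for 8 libraries made with a TruSeq kit. The unit was inferred from the values. The submitters' processing notes name Bowtie 0.12.2 and the build mm8, and the counting tool and annotation are not given in the sources used here. Of 23471 entries, 4 with 2 repeated symbols were left out. Depth was recovered from short genes of known RefSeq length read once, and whole reads (tolerance 0.001 reads) were found for 10380 of 13421 genes (77.34%) and 9 of 10 members, which bounds counting error only. No count model was used, since the values are no counts.

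The 13421 genes whose mean over the libraries reached 1 RPKM entered a linear model of log2(RPKM + 1) on genotype and stage (limma 3.58.1, R 4.3.3, trended eBayes), two-sided, with Benjamini-Hochberg adjustment over all of them and a threshold of 0.05. Stage contrasts came from the same fit, and the difference of the genotype effect between stages from a moderated F test on the 6 conditions. Single-stage and control differences had no test. The procedure was tested on simulated data. Lists and members were chosen with earlier results of these data known. Genes named are the members, *Nfe2l2*, *Keap1*, *Bach1*, up to 4 called genes of each list, the 5 most similar profiles and the genes that check the labels. *Mafg*, *Sqstm1*, *Clec4f*, *Epcam*, *Cldn4*, *Sox9*, *Cps1*, *Lyz2*, *Cd68*, *C1qa*, *Emr1* and *Csf1r* were named outside this rule, after their values were seen.

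Alternatives were a pseudocount of 0.1, no filter, a mean of at least 5 RPKM, upper-quartile scaling (percentile 75), quantile normalization, eBayes without trend, each L1L2_Alb-labelled library of a pair left out, pairs averaged, and each stage left out (genotype only). Promoter windows were from RefSeq (GRCm38.p6). Python 3.11.15, pandas 2.3.3 and matplotlib 3.10.9 made tables and figures.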

Additional observations from a re-analysis of the deposited data

Results flagged for a closer look

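For 4 members the genotype difference had one sign in every library of a stage and the opposite sign in every library of another. The share of all genes that met this rule was not counted. Some of the signs rested on values near 0, such as -0.04 for *Gsr* in iHB and -0.05 for *Slc7a11* in iBEC library 2. The iHB stage has 1 library of each genotype, these contrasts were not tested one by one, and the test over all 3 stages called none of the members. Mean log2 differences of L1L2_Alb-labelled minus control libraries differed between iHP and iHB by 0.592 for *Gsr*, 0.643 for *G6pdx* and -0.452 for *Nqo1*, between iBEC and iHB by -0.508 for *Slc7a11* and 0.439 for *G6pdx*, and between iBEC and iHP by 0.63 for *Nqo1*. In that last contrast *Nqo1* was below the control in both iHP libraries (-0.11 and -0.39) and above it in both iBEC libraries (0.49 and 0.27), with 47 to 94 reads in each of the 6 libraries. After quantile normalization *Nqo1* was at 0.13 and -0.0008 in those iHP libraries. After upper-quartile scaling and quantile normalization *G6pdx* in iBEC library 1 turned to -0.11 and -0.17, so that its opposite signs in iBEC and iHB did not hold.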

How the results depend on the processing

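The count of genes called for genotype, 1284 (832 higher, 452 lower), was 686 without a filter, 326 without the iHB stage, 132 without the iHP stage and 793 to 1227 with 1 library left out, with the fewest without iBEC library 2 and 844 without iHP library 1. Without the iBEC stage the count was 1396, with 523 higher and 873 lower. Upper-quartile scaling with all stages gave 612 higher and 577 lower. Members called higher were 0 to 1 with 1 library left out. Members called lower between iBEC and iHB were 0 to 2 with 1 library left out and 1 with pairs averaged (*Txnrd1*), and between iBEC and iHP 0 to 1. The median of the members in iBEC, 0.325, was 0.153 with upper-quartile scaling and 0.0709 with quantile normalization. No fold change passed the test in a setting where its sign was opposite to that of the main fit. *Hmox1* between iBEC and iHP changed sign without iHP library 1 (0.176), but was at -0.844 without iHP library 2, the setting given above. For genotype, *Slc7a11* was at -0.028 with a pseudocount of 0.1, -0.094 with upper-quartile scaling, -0.071 without iHB, -0.096 without iHP and -0.202 to 0.171 with 1 library left out. *Gsr* was at -0.025 and *Nfe2l2* at -0.080 with quantile normalization, *Nqo1* at -0.056 without iBEC and *Osgin1* at -0.026 to 0.576 with 1 library left out. *Keap1* was at 3.535e-05 with pairs averaged, 0.103 without iHP and -0.065 to 0.028 with 1 library left out. Between iHP and iHB, upper-quartile scaling gave 0.1195 for *Gclm* and 0.105 for *G6pdx*, and quantile normalization 0.140 for *Gclm*, 0.059 for *Srxn1* and 0.057 for *G6pdx*. With 1 library left out that contrast ran from -0.192 to 0.151 for *Gclm*, -0.168 to 0.0056 for *Srxn1* and -0.983 to 0.020 for *Osgin1*. *Srxn1* between iBEC and iHB was at 0.00063 and 0.0011 under the 2 scalings. Between iBEC and iHP, upper-quartile scaling gave 0.0016 for *Gclc* and 0.0056 for *Srxn1*, and *Nqo1* was at -0.150 with quantile normalization and -0.097 with pairs averaged. With 1 library left out this contrast ran from -0.320 to 0.086 for *Gclc*, -0.132 to 0.018 for *Nqo1*, -0.844 to 0.176 for *Hmox1* and -0.897 to 0.207 for *Osgin1*, where the highest values of *Gclc*, *Hmox1* and *Osgin1* were without iHP library 1. The cause of these changes was not tested. *Slc7a11* and *Nqo1* were under the filter of 5 RPKM. No paired analysis was possible because each stage has 1 control library and the labels give no numbers shared between genotypes. With 1 library of a group left, that library was assumed to vary like the others.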
